A study of Homo sapiens with 8 samples.

Results

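The control m6A peaks that lay in introns were 673 of the 2298 peaks of the control list. A peak was taken as intronic when its summit lay inside the body of a gene and in no annotated exon of any gene (GENCODE release 44 on the hg19 build, GRCh37). No limit was set on fold or q value, and the single mitochondrial peak was left out. Of the other control peaks, 1497 lay in exons and 128 between genes. The cells were MIAPaCa-2, an established line of pancreatic carcinoma cells, that carried a control short hairpin RNA (control cells) or one against METTL3 (METTL3-KD cells). Total RNA of these cells was broken into short pieces, a part was kept as input, and the rest was precipitated with an antibody against N6-methyladenosine (m6A). The selection of polyadenylated RNA was left out of the library preparation, according to the labels. The labels L001 and L002 were read as 2 sequencer lanes of the same library, which the labels do not state. On that reading each condition had 1 m6A library and 1 input library, so no difference between the conditions has a replicate check.

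N6-methyladenosine is the most common internal modification of messenger RNA. It is written by a complex with METTL3 as its catalytic subunit, while the RNA is still being made, usually at the sequence context DRACH (A, G or T, then A or G, then A, then C, then A, C or T). Because introns are still present at that time, m6A can be placed in them, and intronic RNA is seen in total RNA as unspliced precursor. An intron begins at the donor site, with GT in most introns, and ends at the acceptor site, with AG after a stretch rich in pyrimidines.

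The libraries held few distinct molecules, and this set the scale of every value below. The peak caller kept 7920 distinct read positions of the control m6A library and 9291 of the control input, from 2242358 and 2880835 reads. A peak was therefore made by very few fragments, and the pileup, the number of retained fragments at the summit, was 1 in 386 of the intronic control peaks (57.4%, 95% Wilson interval 53.6% to 61.0%). It was 2 in 197 peaks, 3 in 75 and 4 or more in 15. Fragments were extended by the peak caller to 100 bases along the genome, so most intervals were 100 bases long, and the lists carry no strand. METTL3 itself had 0 reads in every lane of both inputs, which left the knockdown without a check at this depth. Among the epithelial markers of the label, KRT8 had 10850 control reads and 1167 METTL3-KD reads over both lanes, KRT18 had 3535 and 1212, and KRT19 had 1 control read beside 88 and 113 by METTL3-KD lane. EPCAM and CDH1 were at 0 in all 4 lanes. The mesenchymal marker VIM had 8978 and 5649, and FN1 was at 0. Of the acinar, immune and endothelial markers, PRSS1, CPA1, CELA3A, PTPRC, CD3E and VWF were at 0 in both inputs, and CD68 had 0 control reads and 43 METTL3-KD reads. All intervals given for shares and densities cover counting error only, because the reads carry no molecular identifiers and copies of a molecule cannot be counted apart.

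The intronic control peaks fell into 2 main kinds by where the interval ended. In 439 peaks the whole interval lay outside every exon, and these are called interior peaks. In 211 peaks the interval ran across the acceptor site into the next exon of the host gene, and these are called acceptor-side peaks. In 8 peaks (POMGNT1, TNKS2, PLCB3, BLTP2, KANK2, NDRG1, DDX31 and ENSG00000267059) the interval ran across the donor site into the exon before the intron. In the rest, 2 intervals covered a whole short intron (GPS1 and FLNA), and 13 reached an exon of another gene. This split was made after the positions had been seen.

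To show what the acceptor-side intervals cover, the intervals of 5 of them are printed 5′ to 3′ on the strand of the host gene, with intron in lower case and the coding exon in capitals. They were taken in order of pileup, with ties in order of position, among those whose exonic bases are all coding. The intervals are chr14:96757226-96757329 (ATG2B, intron 41 of 45), chr6:159208202-159208305 (EZR, intron 4 of 14), chr1:19482116-19482217 (UBR4, intron 42 of 106), chr1:38049499-38049600 (GNL2, intron 5 of 16) and chr1:247079650-247079751 (AHCTF1, intron 3 of 38), all on the minus strand of GRCh37.
ATG2B: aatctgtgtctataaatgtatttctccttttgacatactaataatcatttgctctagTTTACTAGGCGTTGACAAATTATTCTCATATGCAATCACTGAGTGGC
EZR: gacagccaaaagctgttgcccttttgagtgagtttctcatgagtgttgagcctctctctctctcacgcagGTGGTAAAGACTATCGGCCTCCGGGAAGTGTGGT
UBR4: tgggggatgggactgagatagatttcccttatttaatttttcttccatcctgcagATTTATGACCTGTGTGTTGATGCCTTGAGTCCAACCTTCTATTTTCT
GNL2: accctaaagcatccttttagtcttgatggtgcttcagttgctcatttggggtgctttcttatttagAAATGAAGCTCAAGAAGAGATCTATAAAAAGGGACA
AHCTF1: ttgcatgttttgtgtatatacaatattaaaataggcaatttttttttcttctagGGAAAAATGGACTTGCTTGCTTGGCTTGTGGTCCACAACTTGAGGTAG
Each of these intronic stretches ends in AG after a pyrimidine-rich run, as an acceptor site does. Over all acceptor-side peaks, 203 of the 211 introns ended in AG on the host strand and 186 began with GT.

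For comparison, the 5 interior peaks with the highest pileup, a summit sequence with 1 copy in the genome and a DRACH match near the summit are printed in the same way, with the DRACH matches in capitals. They are chr11:77837837-77837942 (ALG8, intron 5 of 21, minus strand), chrX:64752043-64752142 (LAS1L, intron 1 of 10, minus), chr12:58233504-58233610 (CTDSP2, intron 2 of 8, minus), chr20:36712982-36713084 (RPRD1B, intron 10 of 13, plus) and chr21:47549910-47550016 (COL6A2, intron 29 of 29, plus).
ALG8: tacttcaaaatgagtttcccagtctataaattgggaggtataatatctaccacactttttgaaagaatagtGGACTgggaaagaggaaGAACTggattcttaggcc
LAS1L: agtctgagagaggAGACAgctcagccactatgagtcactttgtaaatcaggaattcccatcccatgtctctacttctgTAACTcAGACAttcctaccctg
CTDSP2: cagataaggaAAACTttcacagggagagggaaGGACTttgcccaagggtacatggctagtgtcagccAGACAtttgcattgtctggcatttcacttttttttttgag
RPRD1B: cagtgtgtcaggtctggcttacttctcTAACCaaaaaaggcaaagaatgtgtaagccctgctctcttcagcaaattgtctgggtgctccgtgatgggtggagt
COL6A2: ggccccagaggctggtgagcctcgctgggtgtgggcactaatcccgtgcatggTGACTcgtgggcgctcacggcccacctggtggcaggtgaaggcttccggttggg
These stretches held 1 to 3 matches each and no exon.

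Summits of intronic control peaks were concentrated on one side of the intron. Within 50 nt of the acceptor site lay 213 of the 673 summits (31.6%, 28.2% to 35.3%), and within 50 nt of the donor site lay 10 (1.49%, 0.809% to 2.71%). The annotation gave no such difference in space, since each of these zones held 0.721% of the intron bases of the host genes. In bins of 10 nt from the acceptor site the counts were 49, 56, 48 and 52 up to 40 nt, then 8 and 3. Beyond 60 nt they ran at 0 to 4 per bin, so the excess lay in the last 50 nt of the intron. Between 51 and 100 nt the order of the sides turned, because the zone within 100 nt held 218 summits on the acceptor side and 35 on the donor side, only 5 and 25 more than the inner zone.

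**Figure D1:**
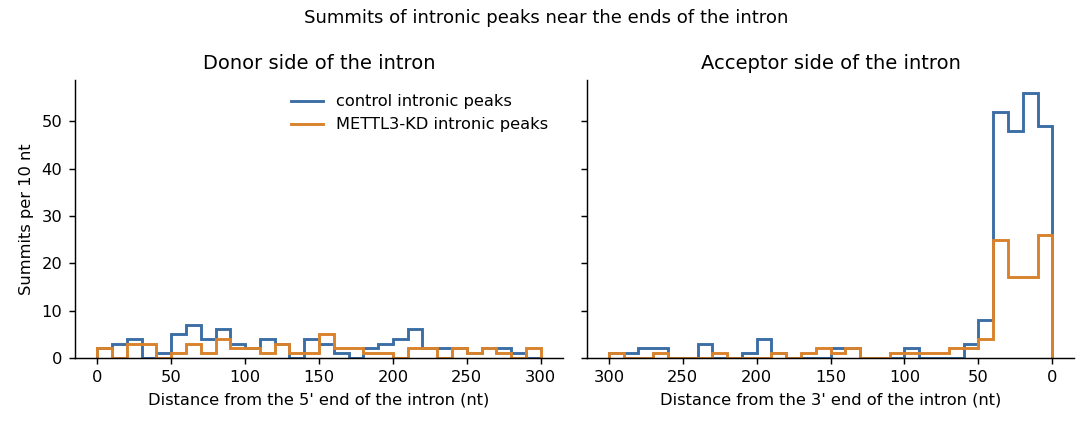
Number of intronic summits per 10 nt (vertical axis) against the distance in nt from the 5′ end of the intron (left panel) and from its 3′ end (right panel), for the control list (blue) and the METTL3-KD list (orange). In the control list 213 summits lay within 50 nt of the 3′ end and 10 within 50 nt of the 5′ end, and the METTL3-KD list had 89 and 8.

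The same one-sidedness was present on both genomic strands. Hosts on the plus strand had 103 acceptor-side and 2 donor-side peaks of 319, and hosts on the minus strand had 108 and 6 of 354. It was also present in the METTL3-KD list, a separate immunoprecipitation, where 91 of 448 intronic peaks reached the exon after the intron and 6 the exon before it. Acceptor-side peaks made up 31.4% of the intronic peaks of the control list and 20.3% of those of the METTL3-KD list. The difference was 11.04 percentage points (Newcombe interval 5.82 to 16.04). This interval counts peaks of 1 library per condition, with 7920 and 4508 distinct positions, and cannot speak to the condition. The one-sidedness held as well for control peaks whose summit lay in an exon. Of these, 248 crossed the 5′ edge of their exon (16.6% of 1497) and 40 the 3′ edge (2.67%). Among control peaks of 1 fragment and 100 bases that crossed a single splice site, in either class, 216 crossed an acceptor site and 20 a donor site. Of the acceptor crossings, the part inside the intron was 1 to 25 bases in 55, 26 to 50 in 54, 51 to 75 in 57 and 76 to 99 in 50, so every position of the fragment over the acceptor site was about equally frequent. The intronic and exonic members of this group thus formed 1 continuous set that the summit rule divided. Extension of spliced reads along the genome is part of how the intervals were made, and its part in these counts was not tested.

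The acceptor-side peaks lay almost all in introns of protein-coding genes. The median intron around them had 1253 nt (interval 1015 to 1575), and 89 of 211 (42.2%) lay in introns of 1000 nt or less. Each intron has 1 acceptor site whatever its length, so this share is not set against intron bases. The lengths of all introns, each counted once, were not computed, so these introns cannot be called short or long. Their host genes had a median length of 53023 nt (45156 to 62535), and 208 of 211 hosts were protein-coding. The interval entered the next exon by a median of 30 bases, with a range of 3 to 168. First introns of the host held 12 of them (5.69%), and the median number of introns in the host was 18. Of the interior peaks, 72 of 439 lay in first introns (16.4%, 13.2% to 20.2%). First introns held 16.4% of the intron bases of all genes and 11.9% of those of the hosts of all intronic control peaks. The acceptor-side and interior shares have unlike baselines, acceptor sites and intron bases, so their difference is not read as a trait of the 2 kinds.

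Interior peaks lay more often within 5000 nt of an exon than intron bases do. Their median intron had 14223 nt (11373 to 16265), their median distance to the nearest exon was 1970 nt (1539 to 2357), and their median host gene had 105169 nt (94244 to 118023). These introns and genes were shorter than the average base of intron would give. Weighted by bases, the median intron of the genome had 28204 nt and the median gene around an intronic base had 195552 nt, and 74.5% of interior summits lay within 5000 nt of an exon against 56.1% of intron bases. The interior class holds no summit within 50 nt of an exon, by its definition, and so leaves out the shortest introns. Within the intron, 141 interior summits lay in the first 25% of its length from the donor site (32.1%, 27.9% to 36.6%), 127 in the next 25%, then 106, and 65 in the last 25% (14.8%, 11.8% to 18.4%). In the METTL3-KD list the interior summits numbered 90, 86, 102 and 69 in the same stretches, and the first held 25.9% (21.6% to 30.8%).

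Over all 673 peaks, the median host gene had 83855 nt (interval 70919 to 93296, range 1998 to 1987244), the median intron 6493 nt (5493 to 7622) and the median distance to an exon 642 nt (445 to 823). The value for the whole set stood between the values of the 2 kinds and described neither. First introns held 91 peaks (13.5%, 11.1% to 16.3%), beside 11.9% of the intron bases of the host genes and 16.4% of those of all genes.

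**Figure D2:**
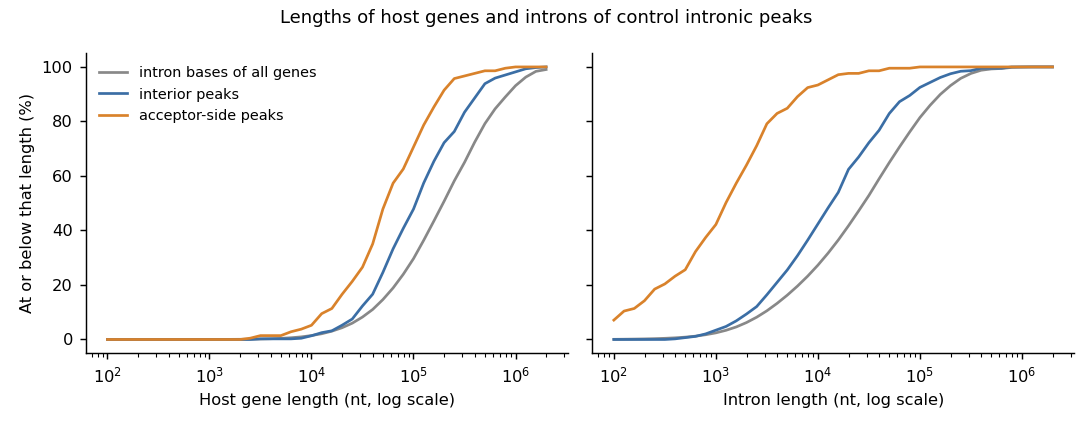
Cumulative share in percent (vertical axis) of interior control peaks (blue), acceptor-side control peaks (orange) and intron bases of all genes (grey) against host gene length (left) and intron length (right), both in nt on a log scale. The median intron was 14223 nt for interior peaks, beside 28204 nt at an average base of intron. For acceptor-side peaks the median intron was 1253 nt. The grey curve counts bases and is a baseline for interior peaks only. Acceptor-side peaks are not set against it, because acceptor sites do not grow in number with the length of an intron.

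Introns held fewer peaks than exons for their space and more than intergenic sequence. There were 41.7 intronic control peaks per 100 Mb of intron (95% Poisson interval 38.6 to 45.0), 958 exonic peaks per 100 Mb of exon (910 to 1007) and 11.8 intergenic peaks per 100 Mb (9.81 to 14.0). Interior peaks alone came to 27.2 per 100 Mb of intron (24.7 to 29.9), still above the intergenic density. Introns take 56.5% of the reference bases and held 29.3% of the control peaks. By chromosome the density ran from 17.8 per 100 Mb of intron on chromosome 18 (7 peaks) to 122 on chromosome 19 (39 peaks), and chromosomes 21, 16 and 17 stood next with 104, 76.9 and 62.9.

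Protein-coding genes hosted 597 of the 673 peaks (88.7%, 86.1% to 90.9%), and they hold 73.2% of intron bases. Long noncoding RNA genes hosted 67 peaks (9.96%, 7.92% to 12.4%) and hold 25.1%. Per 100 Mb of intron this was 50.5 peaks (46.5 to 54.7) in protein-coding genes and 16.6 (12.8 to 21.02) in long noncoding RNA genes. The 615 host genes held 1 peak in 565 cases, 2 in 42 and 3 in 8. An exonic control peak was also present in 100 of the host genes (16.3%), and 5.89% of all protein-coding genes had an exonic control peak.

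The density of interior peaks fell with the length of the host gene above 100 kb. It was 32.9 per 100 Mb (20.8 to 49.4) in hosts of 20 kb or less, 45.8 (39.4 to 52.8) between 20 and 100 kb, 25.3 (21.9 to 29.0) between 100 and 500 kb, and 8.02 (5.28 to 11.7) over 500 kb. The density of acceptor-side peaks fell over the whole range, from 50.1 (34.9 to 69.6) in the shortest hosts to 0.891 (0.184 to 2.60) in the longest. Both densities are per base of intron and not per splice site.

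The density followed the reads of the host gene in the inputs. Interior peaks had a density of 72.3 per 100 Mb of intron (56.7 to 90.9) in genes with at least 1 control input read, 60.004 (52.1 to 68.7) in genes with METTL3-KD input reads only, and 11.7 (9.67 to 13.9) in genes with no read in either input. For acceptor-side peaks the values were 59.4 (45.4 to 76.5), 37.8 (31.6 to 44.8) and 1.25 (0.667 to 2.14). The interior density in genes without reads was thus close to the intergenic density of 11.8. The acceptor-side density is not set against it, because it is divided by all intron bases though these peaks lie only at acceptor sites. Of the interior peaks, 121 lay in such genes, and of the acceptor-side peaks 13.

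**Figure D3:**
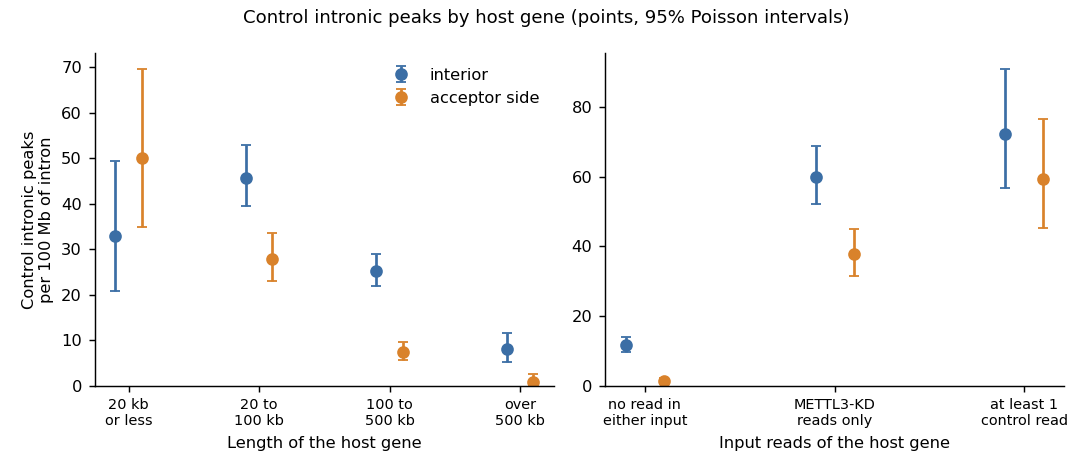
Density of control intronic peaks per 100 Mb of intron (vertical axis, from 0) by length of the host gene (left) and by the input reads of the host gene (right), for interior peaks (blue) and acceptor-side peaks (orange). Points are densities and bars are 95% Poisson intervals, and interior peaks ran from 11.7 in genes without input reads to 72.3 in genes with control input reads.

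The input itself showed the same division gene by gene. Of 577 host genes matched to the count table, 436 had METTL3-KD input reads (75.6%, 71.9% to 78.9%), beside 39.6% of 19475 protein-coding genes. Hosts of acceptor-side peaks had such reads in 181 of 195 cases (92.8%), and hosts of interior peaks in 255 of 374 (68.2%), a difference of 24.6 points (18.3 to 30.3). The median host of an acceptor-side peak had 107 METTL3-KD input reads over both lanes (82 to 141) and the median host of an interior peak 33.5 (25 to 41), as raw reads per gene that are not corrected for length. Control input reads were found for 124 hosts (21.5%, 18.3% to 25.02%), beside 10.2% of protein-coding genes.

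The control input reads of a host were either absent or many. Of the 577 hosts, 453 had 0 control input reads, 19 had 1 to 20, 2 had 21 to 200 and 103 had more than 200. In the METTL3-KD input 286 hosts fell between 21 and 200 reads. Each distinct position of the control input had been read 310 times on average and each of the METTL3-KD input 25.7 times, so the control reads of a gene are far fewer molecules than reads. The host with the most control reads was SCD, the stearoyl-CoA desaturase, with 2296 and 2437 in the control lanes beside 926 and 964, and an acceptor-side peak of 1 fragment. SETD2, the histone H3K36 methyltransferase, with 2 interior peaks, had none in control and 24 and 13 in the METTL3-KD lanes.

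Most hosts had a higher value in the METTL3-KD input, as did most genes, and most of these had no control read. The control input held 9291 distinct positions and 2730 genes with a read, and the METTL3-KD input 52141 and 10463, and the part of this difference between the libraries in the ratios was not tested. Among 427 hosts with at least 10 reads over both inputs, the median log2 ratio of METTL3-KD over control input was 6.10, beside 5.64 over all 9931 genes tested. A log2 ratio above 2 was found in 326 hosts (79.2% of all genes tested had one) and a ratio below -2 in 17 (7.2% of all genes tested). Of the 427 hosts, 305 had 0 control reads (71.4%), beside 74.3% of all genes tested, and the ratio of such genes depends on the prior count. With counts under 3 reads set to 3 in each library, the medians were 6.25 for hosts and 5.75 for all genes. Among the 103 hosts with more than 200 control reads the median was -0.29, with 4 above 2 and 16 below -2. Over the 2095 genes with as many control reads it was -1.03, with 87 above and 697 below. These genes were taken by their control reads, which by itself lowers the ratio. Fewer cells with a transcript and less RNA per cell cannot be told apart in these bulk libraries.

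**Figure D4:**
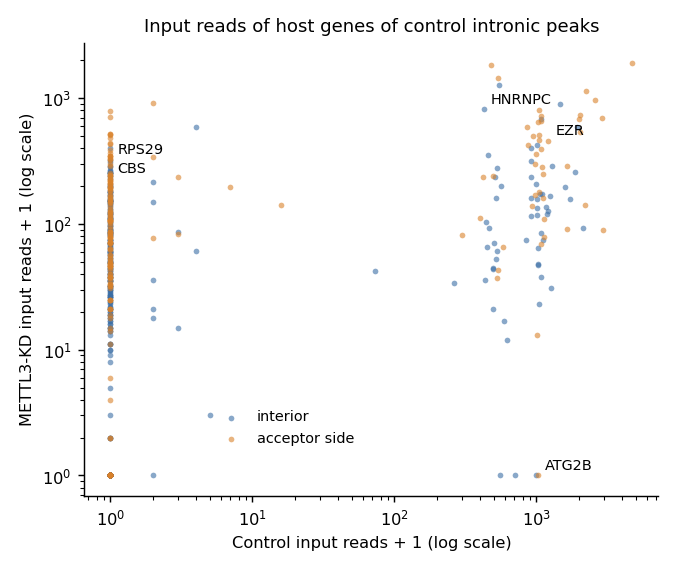
Input reads of each host gene, control on the horizontal and METTL3-KD on the vertical axis, both as reads + 1 on a log scale, for hosts of interior (blue) and acceptor-side peaks (orange). Over all 577 matched hosts, 453 sit at 0 control reads and 103 above 200 control reads, with 21 in between.

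Pileups of intronic peaks were lower than those of exonic peaks and higher than those of intergenic peaks. A single fragment made 57.4% of intronic and 47.8% of exonic control peaks, a difference of 9.59 points (5.05 to 14.1), and 74.2% of intergenic peaks (66.01% to 81.0%). In the control list 51.7% of acceptor-side peaks (44.9% to 58.3%) and 60.6% of interior peaks (55.9% to 65.1%) had 1 fragment. The acceptor-side share was 3.90 points above the exonic one, with an interval of -3.28 to 11.01, and the interior share was 12.8 points above it (7.54 to 17.95). Interior peaks with a summit sequence of 1 copy had 1 fragment in 177 of 326 cases (54.3%, 48.9% to 59.6%). Those with several copies had 1 fragment in 89 of 113 (78.8%, 70.3% to 85.3%). The 1-copy interior share was thus close to the acceptor-side share. In the METTL3-KD list the order was the other way, with 76.9% of acceptor-side peaks (67.3% to 84.4%) and 71.2% of interior peaks (66.2% to 75.7%). All but 9 of the 673 peaks stood over the lowest background that the peak caller allows, so their fold values only restate the pileup.

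**Figure D5:**
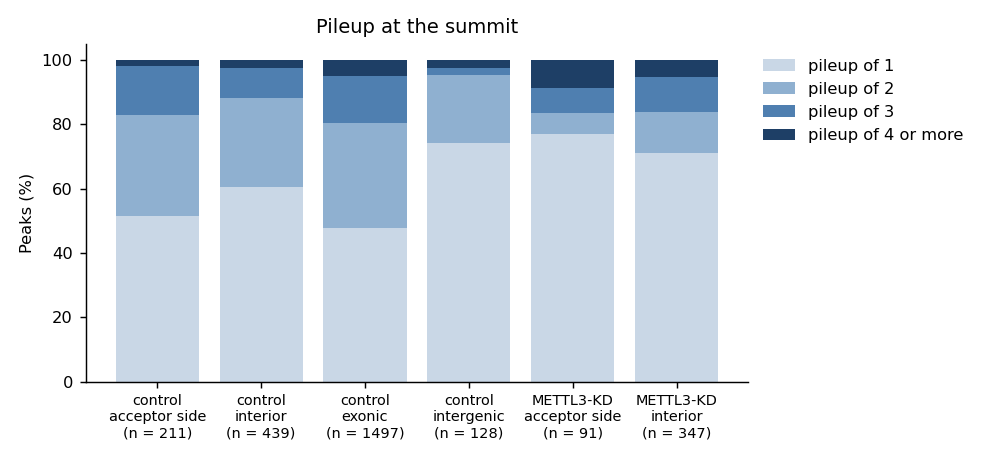
Share of peaks in percent (stacked bars, from 0 to 100) with a pileup of 1, 2, 3 or 4 and more fragments, for control and METTL3-KD peaks by class, with the number of peaks under each bar. A pileup of 1 was found in 51.7% of control acceptor-side, 60.6% of interior, 47.8% of exonic and 74.2% of intergenic peaks.

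The summit sequence was often not unique in interior peaks. The 31-base word centred on the summit occurred more than once on the reference chromosomes in 113 of 439 interior peaks (25.7%, 21.9% to 30.0%) and in 1 of 210 acceptor-side peaks (0.476%, 0.0841% to 2.65%). It did so in 11.98% of exonic and 51.6% of intergenic control peaks. In the METTL3-KD list 44 of 344 interior peaks had such a word (12.8%), which is 12.9 points below the control share (7.43 to 18.3). This interval takes peaks as independent, though some share 1 word, and with 1 library per condition it cannot speak to the condition. Windows that hold N in the reference, on the masked part of chromosome Y, were left out. Of the 117 intronic control peaks with such a word in all, 61 had 2 to 10 copies, 29 had 11 to 99 and 27 had 100 or more. Interior peaks with several copies had a long noncoding RNA host in 38 of 113 cases (33.6%), and those with 1 copy in 25 of 326 (7.67%).

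Many of these peaks shared 1 sequence with each other. The 117 peaks had 87 distinct words, and 44 of the peaks carried a word that another intronic control peak carried as well. Words of 1 sequence that are shifted against each other count as distinct here. Introns of EIF4G3, GKAP1, MRPS36 and RCBTB1, on 4 different chromosomes, each had a peak at the same word, which had 1686 copies. The unnamed gene ENSG00000285756 on chromosome X held 3 peaks of 1 fragment, in introns 14, 7 and 1, at 556, 556 and 554 nt from the donor site. The word at its 3 summits is printed on the host strand because the peaks cannot be told apart by it, at chrX:3778260-3778290, chrX:3816686-3816716 and chrX:3855124-3855154.
ENSG00000285756: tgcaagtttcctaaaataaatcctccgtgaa
This word had 4 copies in the genome, and the 3 peaks can come from reads of any of them. The same held for the 3 peaks in ENSG00000286185 on chromosome 1, which also shared a word of 4 copies, and for the 3 peaks in ENSG00000283360. Of the latter, 2 shared a word of 12 copies. The word of the third also had 12 copies and was the same sequence shifted by 1 base. How the authors' alignment placed reads with several matches is not given in the sources used here.

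DRACH matches did not set the intronic peaks apart. A match lay within 50 nt of the summit on the host strand in 569 of 672 peaks (84.7%, 81.8% to 87.2%), in 84.2% of exonic and in 83.6% of intergenic control peaks, the latter read on the plus strand. The difference from exonic peaks was 0.469 points (-2.94 to 3.65). On the opposite strand the intronic share was 86.9% (84.1% to 89.2%). At an average position of intron a match lay as near in 82.6% of cases on the host strand and in 86.6% on the opposite strand, so the share at the summits was near that of any intronic window. It was 85.2% for acceptor-side and 84.1% for interior peaks. A run of 10 or more A on the host strand was present in 11 of 439 interior windows (2.51%) and 0 of 210 acceptor-side windows (Wilson upper bound 1.80%). Runs of 10 or more T went the other way, in 4 interior (0.911%) and 6 acceptor-side windows (2.86%). The share of such runs over all intron positions was not computed. The median GC content of all intronic control windows was 43.1%, beside 40.8% over all intron bases.

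Few intronic control peaks were met again in METTL3-KD cells, and this was so for all control peaks. No METTL3-KD peak overlapped 670 of the 673 (99.6%, 98.7% to 99.8%), beside 99.3% of all control peaks. Any METTL3-KD peak in the host gene was found for 87 (12.9%), and one in the same intron for 7. The METTL3-KD m6A library was the smaller, with 4508 distinct positions (0.569 of the control number), and the part of depth in the missing overlap was not tested. The 3 shared peaks lay in RPS29, STRCP1 and JAK2. JAK2, the cytokine receptor kinase, had a peak of 1 fragment 36 nt before an acceptor site, with no control read and 62 and 43 METTL3-KD reads. STRCP1, a copy of the STRC gene, had a peak of 1 fragment at a word with 2 copies.

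The peak assigned by position to RPS29, a protein of the small ribosomal subunit, stood apart from all others. It lay at chr14:50053345-50053516 in intron 1 of 3, 264 nt from the acceptor site, and had a pileup of 89 where no other intronic control peak exceeded 6. Its fold was 2.63, because the input was high at the same place. The summit word had 8 copies in the genome, and it occurred in transcripts of 8 annotated genes, 7 of them named as copies of 7SL RNA, among them RN7SL2 and RN7SL3. 7SL is the abundant RNA of the signal recognition particle, and the summit of the peak cannot be told apart from it by sequence. The annotation used has no exon at the summit, and whether this copy is itself a 7SL gene was not tested. RPS29 itself had no control read, against 156 and 167 METTL3-KD reads by lane.

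The 14 other peaks with a pileup of 4 or more had a unique summit word except the one in DECR1. ALG8, a glucosyltransferase of N-glycan assembly, had the highest fold, 6.998, with a pileup of 6 at 514 nt from the nearest exon. No control read of the gene was counted, and 65 and 85 METTL3-KD reads were. LAS1L, a factor of ribosomal RNA processing, followed with a pileup of 5 and a fold of 5.80 in its first intron. It had 525 and 557 control reads and 37 and 47 METTL3-KD reads. ATG2B, a lipid transfer protein of autophagy, had its summit 6 nt before the acceptor site, with 508 and 516 control reads and none in METTL3-KD. EZR, which ties the membrane to actin, and PHIP, a chromatin reader, also had acceptor-side peaks of 4 fragments, 19 and 23 nt before the exon. EZR had 632 and 579 control reads beside 234 and 223 METTL3-KD reads. PHIP had 472 and 460 beside 76 and 63. FAM83H, a regulator of the keratin cytoskeleton, had another, 30 nt before the exon.

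The other peaks with 4 fragments were interior. CBS, the cystathionine beta-synthase, had its summit 136 nt before an acceptor site, the nearest to an exon of these, and 0 control reads beside 116 and 112 METTL3-KD reads. COL6A2, a chain of type VI collagen, had its summit 241 nt after the donor site of the last intron. NDUFA8, a subunit of respiratory complex I, had its summit 3051 nt from the nearest exon. IL13RA1, a cytokine receptor, had 618 and 630 control reads and a summit 2442 nt from an exon. CTDSP2, a small phosphatase, had 323 and 297 control reads beside 3 and 8, and RPRD1B, which binds the tail of RNA polymerase II, had 0 control reads beside 4 and 6. OVOL2, an epithelial transcription factor, had 0 reads in all 4 lanes and a peak 1891 nt from an exon. DECR1, a mitochondrial enzyme of fatty acid oxidation, had a summit word with 3401 copies. The input reads of these hosts thus ranged from 0 in every lane to 632 in a lane.

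Hosts with 3 peaks were of both kinds. SNRNP200, the helicase of the U5 small nuclear ribonucleoprotein, had 3 acceptor-side peaks in introns 7, 12 and 33 of 43, with pileups of 1, 3 and 2 and summits 17, 20 and 33 nt before the exon. It had 1076 and 1107 control reads and 74 and 67 METTL3-KD reads. ALDH7A1, an aldehyde dehydrogenase of lysine breakdown, had peaks of 3, 3 and 2 fragments, of which those in introns 10 and 2 were on the acceptor side and that in intron 17 was interior. CEP164, a centriole protein needed for cilia, had 3 interior peaks of 2 fragments, 1767, 779 and 56 nt from an exon, with 0 control reads beside 30 and 28. P4HA2, a collagen prolyl hydroxylase, had 3 interior peaks of 2, 1 and 1 fragments and 4 and 5 METTL3-KD reads. SLC38A4-AS1, a long noncoding RNA gene, had 3 peaks in its last intron of 379613 nt and 0 reads in every lane. At least 1 of these peaks had a summit word with 65 copies, which peaks in LINC02389 and LINC02997 also carried.

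The longest intron with a peak was the first intron of TBC1D5, a regulator of endosomal sorting, with 701858 nt. It held 2 peaks, of 2 fragments and 1 fragment, 62231 and 10025 nt from the nearest exon. At the other extreme, peaks in ALDH7A1, UBE2E3 and ENSG00000173867 had their summit on the last base of the intron.

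The gene lists hosted few peaks each, so their densities rest on single fragments. Over all genes the density was 41.7 per 100 Mb. It was 137.7 in genes with control input reads, 100.4 in genes with METTL3-KD input reads only and 13.6 in genes with no read. The lists were not matched to other genes by their reads, so their densities are not read as enrichment. Of 59 chromatin regulators, 7 hosted 8 peaks, 99.4 per 100 Mb of their introns. They were SETD2 with 2 peaks, CHD3, KDM4B, KDM2A, BAZ1A, BAZ2B and CHD2. Of 21 writers, readers and erasers of m6A, HNRNPC and FTO hosted 1 interior peak each, 147 per 100 Mb. HNRNPC, a nuclear RNA-binding protein, had a peak of 2 fragments 1067 nt from an exon, with 217 and 208 control reads and 419 and 393 METTL3-KD reads. FTO, a demethylase of m6A, had a peak of 1 fragment 823 nt from an exon, with 0 control reads beside 8 and 6. Of 35 mitotic regulators, KIF20B, STAG1 and TPX2 hosted 1 peak of 1 fragment each, all on the acceptor side, 38, 32 and 8 nt before the exon, which came to 137 per 100 Mb. Of 51 splicing factors and RNA-binding proteins, SF3B2 had an acceptor-side peak and SF3B3 an interior one, each of 1 fragment, and the SF3B3 word had 4495 copies. Their density was 106 per 100 Mb.

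The next lists hosted 1 peak or none. The 25 very long genes of common fragile sites hold 34.4 Mb of intron and hosted 1 peak, in NBEA, 33 nt before an acceptor site. The 22 pancreatic cancer genes hold 4.36 Mb of intron and hosted 0. These were 2.91 and 0 per 100 Mb, beside 41.7 over all genes and 8.91 in all genes over 500 kb.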

How the data were processed

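The authors fragmented RNA, removed ribosomal reads with Bowtie2, aligned 75-base reads to hg19 with HISAT2 and called peaks with MACS2 2.1.1, pooling both lanes, extending fragments to 100 bases and keeping 1 read per position. The deposited pileup is a signal (retained fragments at the summit), the deposited fold column is the authors' ratio of pileup to local background with a pseudocount, and the deposited −log10 column holds q values. Headers state a q cut-off of 0.05 and the methods 0.01, and all listed peaks were used. Per the labels, input counts are raw featureCounts reads per gene (63568 genes), deposited per lane with sums of 1609215 and 1628753 (control) and 906240 and 926765 (METTL3-KD). The authors' own comparisons were not used.

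All 3382 peaks outside the mitochondrion lay inside the chromosome ends of GRCh37. The host was the gene around the summit, protein-coding first, then the longest. Introns lie between merged exons of a gene. Copies are exact matches of the 31-base summit word on both strands. Lanes were summed as 1 library, and ratios used CPM scaled by TMM (edgeR 4.0.16, R 4.3.3) with a prior count of 2 and at least 10 reads over both inputs. IDs of 577 of 615 hosts matched the count table. PECAM1 could not be matched. Scripts (Python 3.11.15, pysam, scipy) were tested on simulated data. With 1 library per condition no test between conditions was run. Shares carry Wilson, their differences Newcombe, densities Poisson and medians order-statistic intervals.

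Named peaks are those with a pileup of 4 or more, among the 10 highest folds, in hosts with 3 or more peaks or on a gene list (the 15 highest folds of each), shared with METTL3-KD, or with the 3 longest introns or nearest exons. ENSG00000285756, UBR4, GNL2, AHCTF1, SCD, GPS1, FLNA, the donor-side hosts, the hosts that share a word, CHD2, FTO, SF3B3 and TPX2 were added after their values were seen. The members and lists were chosen with earlier results of these data known. Some named peaks and 1 gene list are not reported here.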

Additional observations from a re-analysis of the deposited data

How the results depend on the processing

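All values rest on 1 library per condition and 7920 distinct m6A positions in the control, so sampling limits every share, and differences between conditions have no replicate check. No paired analysis was possible because the results come from no test and each peak list pools both lanes. Of 72 alternatives, 39 left the value within its interval (for the count of hosts, within 1.5 times) and 33 moved it further. Changes of direction were not assessed. A q value under 0.01 moved none. With folds above 2 only, the share of control peaks in introns was 26.04%, between genes 2.99%, the density 0.178 per Mb of intron (0.417 as reported), the median intron 4170 nt, the distance to an exon 379 nt, protein-coding hosts 93.4%, multi-copy words 8.74% and hosts with control reads 26.4%. With the whole interval outside exons these were 19.1% in introns, 0.272 per Mb, 14223 nt, 1970 nt, 83.6%, 25.7% and 18.2%, with a median host of 105169 nt and 16.4% in first introns. With basic transcripts the intron share was 32.6%, the density 0.477 per Mb and the distance 432 nt, and with protein-coding and long noncoding genes alone the intergenic share was 8.31%. Counting any METTL3-KD peak in the host as shared left 87.1% of peaks unshared, 25 nt windows gave DRACH in 60.1%, and 50-base words were repeated in 12.9%. Interior peaks with 1 copy, an alternative chosen after seeing the data, had medians of 106999 nt for the host, 15184 nt for the intron and 2019.5 nt to an exon. The median log2 ratio of hosts was 5.04 with total count scaling, 8.02 with a prior count of 0.5, 3.89 with 10, and 6.89 with at least 50 reads. Leaving out 1 lane gave 5.47 to 6.18. Hosts beyond a log2 ratio of 2 were 343 by TMM, 231 with at least 50 reads and 371 by total counts, where 46 fell below -2 against 17. The median of all genes was 5.64 with TMM, 5.84 with DESeq2 and 4.62 with total counts.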
